A study of Mus musculus with 26 samples.

Results

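Cholesterol synthesis and its control were followed through 31 genes, chosen by name from what they are known to do, with earlier results of these data known, out of 55414 gene identifiers shared by the tables of both tissues. They comprise 7 enzymes of the mevalonate pathway, 11 enzymes that build squalene and turn it into cholesterol, 5 genes of the control machinery of sterol regulatory element binding proteins (SREBPs), 5 genes of the liver X receptors and of sterol efflux, and 3 genes of sterol transport and storage. RNA of the aorta, a large elastic artery, and of the mesenteric arteries, the small muscular arteries of the gut, was sequenced from male mice on a C57BL6J background. The KO AngII group (n = 5 per tissue) carried floxed Sphk1 alleles with a Tagln-driven Cre and received angiotensin II (AngII), a vasoconstrictor peptide that raises blood pressure, at 490 ng/kg/min for 14 days from an osmotic minipump. The WT AngII group (n = 4 per tissue) carried the same floxed alleles without Cre and received the same infusion, and the WT sham group (n = 4 per tissue) carried the floxed alleles without Cre and was sham-treated. The mice were 12 to 14 weeks old when hypertension was induced. All groups share the floxed alleles, Tagln is a gene of smooth muscle so that Cre does not act in every cell of the wall, and a KO sham group was not analysed here.

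Cells make cholesterol from acetyl-CoA by way of mevalonate, isoprenoid diphosphates, squalene and lanosterol. When sterols in the endoplasmic reticulum run low, Scap escorts the SREBP proteins, products of Srebf1 and Srebf2, to the Golgi, where cleavage frees the part that switches on the genes of synthesis and uptake; when sterols are plentiful, Insig1 and Insig2 hold Scap back. Excess cholesterol is answered by the liver X receptors, products of Nr1h2 and Nr1h3, which are activated by oxysterols and switch on the exporters Abca1 and Abcg1, and by Soat1, which esterifies cholesterol for storage in droplets. In arteries this system is best known from macrophages and smooth muscle cells that load cholesterol.

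The promoters of most of these genes share letters that the choice of genes did not use. RefSeq promoter windows (build GRCm38.p6, 250 bases before to 50 bases after each start) were found for 25 of the 31 genes. The NF-Y box CCAAT, the site of a factor that works beside SREBPs, was read on both strands and stood in 20 of these 25 genes (80.0%), against 41.1% of all 27025 genes in the table. It was present in 9 of 9 genes for squalene and sterol steps with a window and in 5 of 6 mevalonate genes. Of the other genes with a window, it stood in 4 of 5 SREBP control genes and 1 of 1 transport and storage genes. In the liver X receptor and efflux group 1 of 4 genes held it. The Sp1 box GGGCGG stood in 22 of the 25 genes (88.0%), against 38.2% of all genes. The classical sterol response element core TCACNCCAC stood in 1 of the 25 genes, Hmgcs1, 137 bases before the start, against 1.44% of all genes. These matches overlap no other motif searched, and they are letters in a window, not measured sites. The 150 bases before the start are shown for the gene that holds the sterol element (Hmgcs1), for further enzymes with an NF-Y box near the start (Cyp51 and Lss), for a storage gene outside synthesis that holds one as well (Soat1) and for an exporter whose window holds none (Abca1). Capitals mark the sterol element, NF-Y box and Sp1 box on either strand, so that an NF-Y box on the opposite strand reads ATTGG and an Sp1 box CCGCCC. The stretches lie at chr13:119690201-119690350 on the plus strand (Hmgcs1), chr5:4104698-4104847 on the minus strand (Cyp51), chr10:76531455-76531604 on the plus strand (Lss), chr4:53159896-53160045 on the minus strand (Abca1) and chr1:156474329-156474478 on the minus strand (Soat1), each written 5′ to 3′ along the gene.
Hmgcs1: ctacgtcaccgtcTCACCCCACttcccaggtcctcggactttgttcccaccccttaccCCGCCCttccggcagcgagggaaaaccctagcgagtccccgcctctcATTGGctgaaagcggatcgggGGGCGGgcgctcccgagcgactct
Cyp51: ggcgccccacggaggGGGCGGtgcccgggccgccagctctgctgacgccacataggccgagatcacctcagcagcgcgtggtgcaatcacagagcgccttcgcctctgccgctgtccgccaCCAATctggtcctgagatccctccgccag
Lss: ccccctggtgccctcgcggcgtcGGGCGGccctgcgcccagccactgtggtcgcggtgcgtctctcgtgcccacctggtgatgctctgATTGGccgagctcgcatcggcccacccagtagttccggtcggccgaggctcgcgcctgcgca
Abca1: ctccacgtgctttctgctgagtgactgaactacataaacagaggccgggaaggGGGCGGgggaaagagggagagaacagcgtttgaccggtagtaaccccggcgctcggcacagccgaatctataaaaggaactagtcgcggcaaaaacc
Soat1: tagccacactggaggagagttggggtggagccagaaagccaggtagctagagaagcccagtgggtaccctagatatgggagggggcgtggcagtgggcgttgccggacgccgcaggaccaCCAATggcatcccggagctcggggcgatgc

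The libraries held 17540532 to 30050073 counts assigned to genes in the mesenteric arteries and 23487946 to 32251097 counts in the aorta, and replicates varied more in the mesenteric arteries (common dispersion 0.127) than in the aorta (0.0286). Sphk1, the targeted gene, averaged 2.61 ± 0.735 CPM (read count normalised to library size) in KO AngII aortas (SD, n = 5) and 19.4 ± 6.12 CPM in WT AngII aortas (SD, n = 4; edgeR adjusted p = 0.00046). In the mesenteric arteries it averaged 3.76 ± 0.835 CPM in KO AngII (SD, n = 5) and 13.4 ± 3.18 CPM in WT AngII (SD, n = 4; edgeR adjusted p = 0.0101). The 10 smooth muscle markers, among them Myh11 and Acta2, summed to 23300 to 50500 CPM in the mesenteric libraries and to 19700 to 41400 CPM in the aortic libraries, none of them at 0. A pair of mesenteric libraries stood apart: KO AngII replicate 3 held 2460 CPM of 12 macrophage markers such as Adgre1 and Csf1r (365 to 963 CPM in the other KO AngII libraries), and WT AngII replicate 1 held 889 CPM of them (353 to 572 CPM in the other WT AngII libraries). Records not aligned were 11.43, 14.7 and 14.23% in mesenteric KO AngII replicates 2, 3 and 4 and 12.02% in mesenteric WT AngII replicate 1. In the other mesenteric libraries, among them all WT sham libraries, they were 0.8547 to 2.52%, and in the aortic libraries 0.5717 to 0.7445%. The part of this difference in the mesenteric comparisons was not tested. Markers of gut and pancreas summed to 36.3 to 80300 CPM across mesenteric libraries of AngII-treated WT mice and to 12.6 to 19.9 CPM across the aortic libraries of that group. Across WT sham libraries they summed to 53.3 to 33200 CPM in the mesenteric arteries and to 15.2 to 17.4 CPM in the aorta. All values are from bulk RNA, in which fewer cells of a type and less RNA per cell cannot be told apart.

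All 31 genes were measured in every comparison. On a scale that allows genes to be compared, CPM per kilobase of exon, the regulators led in the aorta of WT sham mice, with Nr1h2 at 30.6, Srebf1 at 25.3, Srebf2 at 22.1, Insig2 at 19.0 and Insig1 at 18.5. Hmgcs1, which makes HMG-CoA, had the highest level of the enzymes at 16.4 CPM per kilobase. The lowest levels were those of the exporter Abcg1 at 0.685 and of Fdps, the farnesyl diphosphate synthase, at 0.367 CPM per kilobase. The order was similar at its ends in the mesenteric arteries of WT sham mice, with Nr1h2 at 30.2, Srebf1 at 20.6 and Srebf2 at 16.3, and with Abcg1 at 1.28 and Fdps at 0.167 CPM per kilobase. Fdps shares 26.7% of its exon bases with a gene on the same strand, Gm43738, which was listed at 0 in every library, and its low level is uncertain for that reason. Shared exon bases also touch Tm7sf2 (12.1%, Vps51 on the same strand), Fdft1 (18.3%, Ctsb on the opposite strand), Scap (13.2%) and Hmgcs1 (12.1%, opposite strand), and which strand setting the counting used is not stated in the labels.

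The effect of AngII with intact Sphk1 was read from WT AngII against WT sham vessels. In the aorta the genes that rose were 4 that handle sterols already in the cell, namely Abcg1, Abca1, Soat1 and Npc1, together with 1 enzyme of synthesis, Cyp51. In all, 5 of the 31 genes were higher and 0 lower at an edgeR adjusted p below 0.05, a share to be read against 25.5% of all 16863 genes tested (14.7% higher and 10.8% lower). The number called was thus not above the background of this aorta. By role, the called genes were 2 of 5 liver X receptor and efflux genes and 2 of 3 transport and storage genes, but 1 of 18 enzymes and 0 of 5 SREBP control genes. The median log2 fold change of the 31 genes was 0.05, against 0.00 over all genes (-0.001).

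Abcg1, which exports cholesterol to high-density lipoprotein, stood at 13.4, 9.81, 9.58 and 6.65 CPM in WT AngII aortas and at 5.12, 4.54, 4.78 and 5.55 CPM in WT sham aortas. Every WT AngII library lay above every sham library, and the log2 fold change was 0.97 ± 0.174 (SE; edgeR adjusted p = 0.00103). Abca1, which loads cholesterol onto lipid-poor apolipoprotein, stood at 103, 94, 71.4 and 69.2 CPM in WT AngII aortas and at 63.5, 51.5, 55.6 and 60.9 CPM in WT sham aortas. The groups did not overlap, with a log2 fold change of 0.53 ± 0.118 (edgeR adjusted p = 0.00434). In both genes WT AngII replicate 1 was the highest library and replicate 4 the lowest of its group.

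Soat1, the enzyme that esterifies cholesterol, stood at 47.8, 41.4, 34.1 and 39.9 CPM in WT AngII aortas and at 30.5, 29.6, 31.2 and 33 CPM in WT sham aortas (log2 fold change 0.38 ± 0.0868; edgeR adjusted p = 0.00534). Npc1, which releases cholesterol from lysosomes, stood at 66.5, 66.1, 64.1 and 67.8 CPM in WT AngII aortas and at 59.4, 56.7, 58.7 and 55.0 CPM in WT sham aortas (log2 fold change 0.19 ± 0.0549; edgeR adjusted p = 0.0205). Both were separated between the groups, and the change of Npc1, though small, exceeded its narrow spread. The call of Npc1 was lost without WT sham replicate 2 (edgeR adjusted p = 0.0546) or 4 (0.0839), with no filter (0.126), with the replicate block (0.0617) and with library size alone as the scaling (log2 fold change 0.06, 0.403). Under that scaling, which moved the median of all genes to -0.126, Soat1 had 0.26 (edgeR adjusted p = 0.0502). These 4 genes were the members without overlap between the groups, all of them higher (4 of 31, against 13% of all genes wholly above and 10.9% wholly below).

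Macrophage markers moved with these genes. Their sum was 1200, 1090, 1160 and 938 CPM in WT AngII aortas and 835, 676, 684 and 699 CPM in WT sham aortas, and 11 of 12 macrophage markers rose. With the mean level of these markers as a covariate the log2 fold changes became -0.15 for Abca1 (edgeR adjusted p = 0.814), -0.10 for Abcg1 (0.932), 0.18 for Soat1 (0.747) and 0.20 for Npc1 (0.577). Cyp51 had 1.32 (edgeR adjusted p = 0.125) with that covariate. It left 293 of 16863 genes called across the genome, and since the marker sums of the groups do not overlap, macrophage content and infusion cannot be told apart. Smooth muscle markers summed to 19700 to 38200 CPM in WT AngII aortas and to 33800 to 41400 CPM in WT sham aortas, and 3 of 10 fell. Of 10 fibroblast markers 4 were higher and 1 lower. Of 10 endothelial markers 1 was higher and 2 lower, and of 8 nerve and Schwann cell markers 1 was higher. Of 12 adipocyte markers 1 was higher and 1 lower. Markers of dividing cells, such as Mki67 and Top2a, were higher in 10 of 10 cases. They summed to 53.1 to 94.1 CPM in WT AngII aortas and to 10.8 to 15.7 CPM in WT sham aortas. The part of these markers in the result was not tested.

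**Figure D1:**
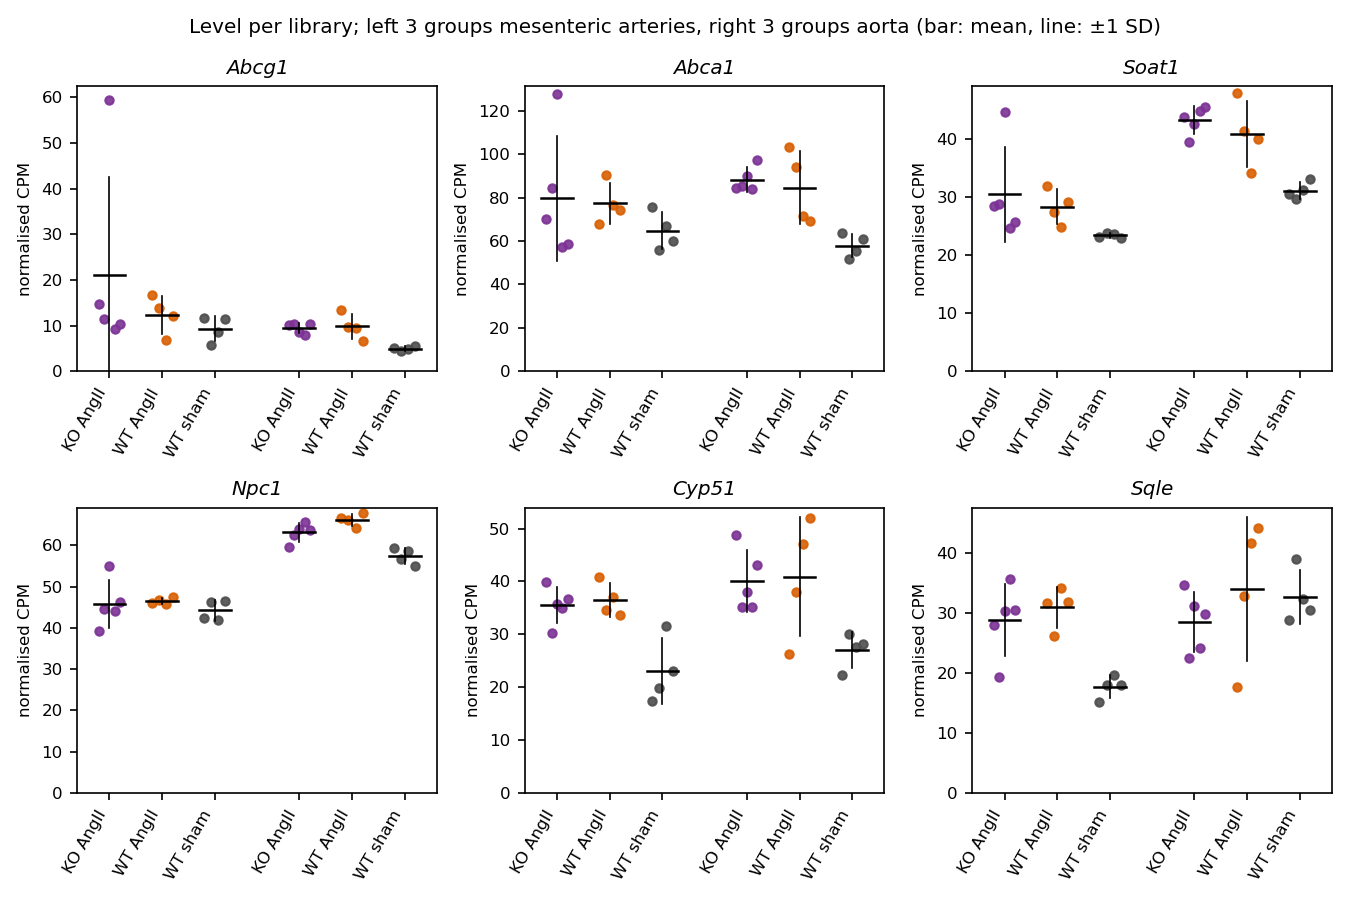
Normalised CPM (vertical axis, from 0) of Abcg1, Abca1, Soat1, Npc1, Cyp51 and Sqle in every library, with KO AngII, WT AngII and WT sham groups of the mesenteric arteries on the left and of the aorta on the right of each panel; points are libraries, bars are means and lines ±1 SD. In the aorta Abcg1, Abca1, Soat1 and Npc1 lie above all sham libraries in every WT AngII library, and in the mesenteric arteries Sqle, Cyp51 and Soat1 do so; 1 mesenteric KO AngII library lies far above its group for Abcg1 (59.4 CPM).

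Among the enzymes of the aorta, Cyp51, the lanosterol demethylase, was the single one called. It stood at 26.4, 38.1, 47.1 and 52.1 CPM in WT AngII aortas and at 22.2, 30.1, 27.5 and 28.2 CPM in WT sham aortas, so that WT AngII replicate 1 lay within the sham range and the other libraries above it. The log2 fold change was 0.59 ± 0.178 (edgeR adjusted p = 0.0278). The call was lost when any of 5 libraries was left out, namely WT AngII replicate 3 (edgeR adjusted p = 0.0753) or 4 (0.0752) and WT sham replicate 1 (0.0838), 3 (0.0569) or 4 (0.0568). It was also lost with no filter (edgeR adjusted p = 0.0725) and with the replicate block (0.0743). Of the other enzymes, Hmgcs1 (log2 fold change 0.33, edgeR adjusted p = 0.0839), Ebp, a sterol isomerase (0.30, 0.0749), and Fdft1, the squalene synthase (-0.30, 0.103), had an unadjusted p below 0.05. With Cyp51, 4 of the 18 enzymes had an unadjusted p below 0.05, against 6268 of all 16863 genes tested. The 18 enzymes split into 11 positive and 7 negative log2 fold changes, with a median of 0.07.

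The enzymes varied widely among the WT AngII aortas. Their summed level was 364, 420, 530 and 526 CPM in WT AngII libraries and 372, 418, 400 and 474 CPM in WT sham libraries, a range that contains all of the sham values. Replicate 1 held the lowest level of its group for 11 of the 18 enzymes, while replicate 3 held the highest for 11 and replicate 4 for 7. Sqle, the squalene epoxidase and a rate-setting step, shows the spread with 17.5, 32.8, 41.6 and 44.0 CPM in WT AngII aortas, against 28.8, 38.9, 32.3 and 30.5 CPM in WT sham aortas (log2 fold change 0.05 ± 0.234; edgeR adjusted p = 0.909). Srebf2, whose product drives these genes, was likewise lowest in replicate 1 and highest in replicate 4, at 83.9, 122, 151 and 176 CPM in WT AngII aortas, against 145, 173, 167 and 151 CPM in WT sham aortas. Across the same 4 WT AngII libraries smooth muscle markers summed to 19700, 29200, 33400 and 38200 CPM and adipocyte markers such as Adipoq and Plin1 to 1910, 1440, 1330 and 711 CPM; their part in the spread was not tested.

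The control genes of the aorta gave no call. Insig1, itself a target of SREBPs, was 64.0, 49.4, 62.1 and 41.8 CPM in WT AngII aortas and 50.3, 48.7, 43.8 and 86.1 CPM in WT sham aortas, with the highest value in sham replicate 4. The log2 fold changes of Insig1, Insig2, Srebf1, Srebf2 and Scap lay between -0.27 and 0.02. The change of Scap was bounded most tightly, with a 95% interval of -0.13 to 0.12. The receptor genes had fold changes of opposite sign and did not pass the test: Nr1h3 (liver X receptor alpha, abundant in macrophages) had a log2 fold change of 0.32 ± 0.142 (edgeR adjusted p = 0.119) and Nr1h2 (the beta form, widely expressed) of -0.25 ± 0.0972 (0.0704). Mylip, a liver X receptor target that marks lipoprotein receptors for degradation, had 0.14 ± 0.118 (edgeR adjusted p = 0.408), and Stard4, a cytosolic sterol carrier, 0.02 ± 0.147 (0.947).

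In the mesenteric arteries most enzymes had positive log2 fold changes, and none passed the test over all genes. With edgeR 0 of 31 genes were called, against 0.183% of all 17513 genes tested, while 12 of the 31 had an unadjusted p below 0.05 (1864 of all genes). DESeq2 called 4 of the 31 (Sqle, Cyp51, Hsd17b7 and Sc5d), all higher, and 309 genes across the genome (1.78% of 17333). Of the 18 enzymes 15 had positive log2 fold changes and 11 an unadjusted p below 0.05, with a median log2 fold change of 0.37 for the enzymes and 0.26 for all 31 genes, against 0 over all genes.

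The smallest adjusted p belonged to Sqle, which stood at 31.6, 26.1, 34.1 and 31.7 CPM in WT AngII mesenteric arteries and at 15.1, 18, 19.7 and 17.9 CPM in WT sham mesenteric arteries. The groups did not overlap, and the log2 fold change of 0.80 ± 0.163 missed the threshold with edgeR (adjusted p = 0.0881) and passed it with DESeq2 (adjusted p = 0.00106). Cyp51 stood at 40.8, 34.5, 37.0 and 33.6 CPM in WT AngII mesenteric arteries and at 17.4, 19.9, 31.6 and 23.1 CPM in WT sham mesenteric arteries, again without overlap. Its log2 fold change was 0.66 ± 0.159 (edgeR adjusted p = 0.146; DESeq2 0.00948), and without WT sham replicate 3, the highest sham library, it passed with edgeR as well (0.86, adjusted p = 0.0335).

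Hsd17b7, a sterol ketoreductase, stood at 11.5, 10.9, 12.7 and 10.4 CPM in WT AngII mesenteric arteries and at 6.93, 7.52, 9.04 and 8.20 CPM in WT sham mesenteric arteries (log2 fold change 0.52 ± 0.126; edgeR adjusted p = 0.154). Sc5d, a sterol desaturase near the end of the pathway, stood at 43.1, 42.7, 49.9 and 40.5 CPM in WT AngII mesenteric arteries and at 34.1, 34.1, 37.2 and 33.5 CPM in WT sham mesenteric arteries (log2 fold change 0.34 ± 0.0901; edgeR adjusted p = 0.199). Every WT AngII library of both genes lay above every sham library. In all, 9 of the 31 genes were wholly higher, and the others were Hmgcs1, Mvd (mevalonate diphosphate decarboxylase), Fdft1, Lss (lanosterol synthase) and Soat1, against 4.71% of all genes wholly above and 4.11% wholly below. Of the 31, 0 were wholly lower. The summed level of the 18 enzymes was 452, 406, 474 and 406 CPM in WT AngII mesenteric arteries and 295, 319, 396 and 326 CPM in WT sham mesenteric arteries. The highest sham library, replicate 3, which held the highest level of its group for 15 of the 18 enzymes, lay just below the lowest WT AngII libraries.

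**Figure D2:**
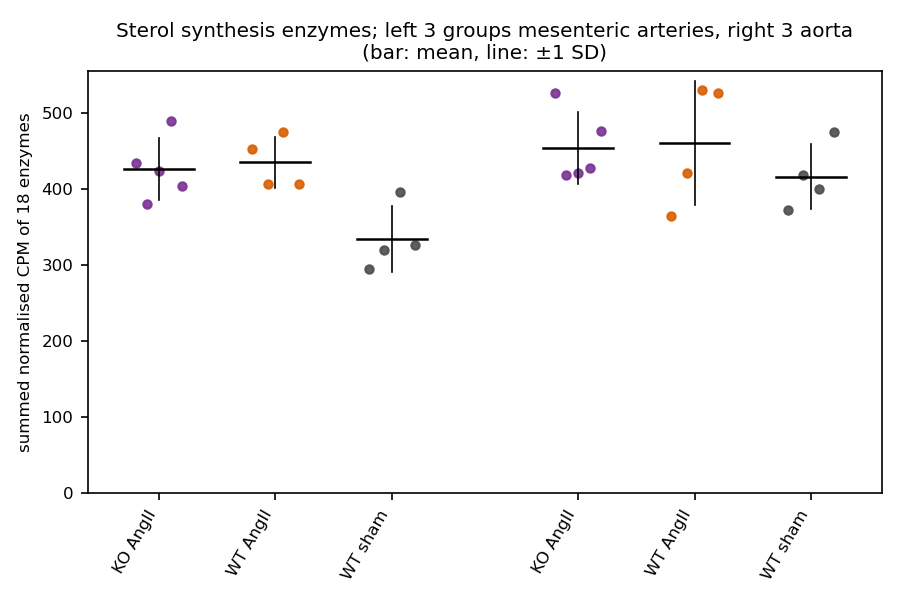
Summed normalised CPM of the 18 enzymes (vertical axis, from 0) in each library, with mesenteric groups on the left and aortic groups on the right; bars are means and lines ±1 SD. Mesenteric WT AngII libraries (406 to 474 CPM) lie above mesenteric sham libraries (295 to 396 CPM), while aortic WT AngII (364 to 530 CPM) and sham (372 to 474 CPM) overlap.

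Early enzymes among the 11 with an unadjusted p below 0.05 were Hmgcs1 (log2 fold change 0.50 ± 0.163; edgeR adjusted p = 0.303), Mvd (0.60 ± 0.207, 0.335) and Idi1, the isopentenyl diphosphate isomerase (0.62 ± 0.225, 0.357). Later ones were Fdft1 (0.39 ± 0.159; edgeR adjusted p = 0.416), Lss (0.34 ± 0.132, 0.385), Msmo1, a methylsterol oxidase (0.43 ± 0.169, 0.398) and Nsdhl, a sterol dehydrogenase (0.32 ± 0.133, 0.424). Dhcr7, which performs a last reduction, had 0.24 ± 0.194 (edgeR adjusted p = 0.679) and Tm7sf2, a sterol reductase, 0.02 ± 0.151 (0.979). Enzymes with a negative value were Mvk, the mevalonate kinase (log2 fold change -0.03 ± 0.116), Pmvk, the phosphomevalonate kinase (-0.11 ± 0.135), and Ebp (-0.10 ± 0.1). The exporters were not separated: Abca1 stood at 67.8, 90.5, 76.7 and 74.4 CPM in WT AngII mesenteric arteries and at 75.8, 56.1, 67.0 and 60.2 CPM in WT sham mesenteric arteries (log2 fold change 0.25 ± 0.229; edgeR adjusted p = 0.713). Abcg1 stood at 16.7, 13.8, 6.91 and 12.1 CPM in WT AngII mesenteric arteries and at 11.6, 5.69, 8.68 and 11.4 CPM in WT sham mesenteric arteries, with a 95% interval of the log2 fold change of -0.84 to 1.64 that leaves room for the aortic change. Of the control genes, Insig1 had 0.39 ± 0.131 (edgeR adjusted p = 0.321), at 50.4, 38.2, 59.9 and 50 CPM in WT AngII and 35.3, 39.5, 42.3 and 34.5 CPM in WT sham mesenteric arteries, with overlap through WT AngII replicate 2. Srebf2 had 0.18 ± 0.128 (edgeR adjusted p = 0.631) and Scap -0.18 ± 0.0962 (0.529). Markers of dividing cells, such as Mki67 and Top2a, also moved in this comparison, with 5 of 10 called higher and 51.9 to 71.4 CPM in WT AngII against 15.8 to 17.6 CPM in WT sham mesenteric arteries. In WT AngII against WT sham aortas 10 of 10 of these markers were called higher. Macrophage markers (12 of 12 positive, median log2 fold change 0.85), gut and pancreas markers (12 of 12 positive, 0.59), endothelial markers (10 of 10 negative, -0.30) and nerve and Schwann cell markers (7 of 8 negative, -0.34) gave 0 calls in the mesenteric comparison. Of these lists 4 endothelial, 3 gut and pancreas, 3 nerve and Schwann cell and 0 macrophage markers had an unadjusted p below 0.05. The gut and pancreas sums overlapped, at 36.3 to 80300 CPM in WT AngII and 53.3 to 33200 CPM in WT sham mesenteric arteries. Their medians, 222 CPM in WT AngII and 11200 CPM in WT sham, ran opposite to the positive log2 fold changes. The part of these markers in the enzyme values was not tested.

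**Figure D3:**
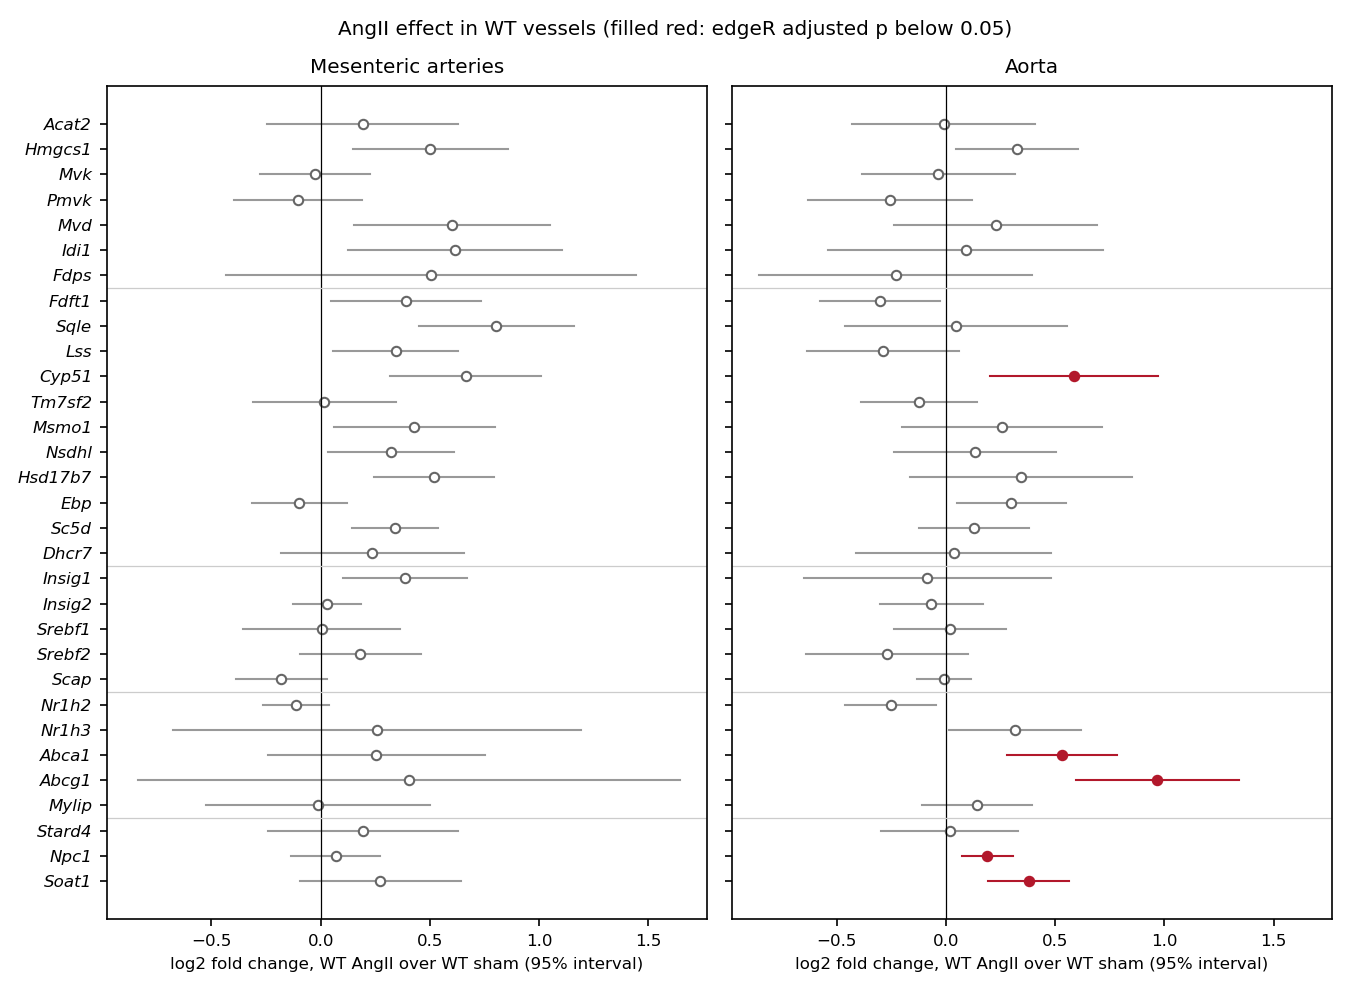
Log2 fold change of WT AngII over WT sham with its 95% interval (horizontal axis) for each of the 31 genes (vertical axis, grouped by role), in mesenteric arteries on the left and aorta on the right; filled red points passed an edgeR adjusted p of 0.05. In the aorta 5 genes are filled, with Abcg1 farthest to the right at 0.97, and in the mesenteric arteries none is filled although 15 of 18 enzymes lie right of 0.

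Whether the AngII effect on these genes differed between mesenteric arteries and aorta was tested as an interaction over all 26 libraries. With edgeR 0 of 31 genes were called, against 2.34% of 18520 genes (434, with 0.68% higher and 1.66% lower). An unadjusted p below 0.05 was found for 4 of the 31, against 2820 of all genes. The smallest adjusted p was that of Fdft1, with a difference in log2 fold change of 0.68 ± 0.213, mesenteric minus aorta (edgeR adjusted p = 0.0959). Its values were 24.3, 20.8, 22.9 and 29.5 CPM in WT AngII and 16.0, 17.8, 20.8 and 19.6 CPM in WT sham mesenteric arteries, and 23.6, 24.4, 35.1 and 29.0 CPM in WT AngII and 28.2, 39.3, 32.8 and 36.7 CPM in WT sham aortas. Ctsb, which shares exon bases with Fdft1, averaged 492 CPM in WT AngII and 449 CPM in WT sham mesenteric arteries. In WT AngII and WT sham aortas it averaged 1050 and 959 CPM, and its part in the Fdft1 values was not tested. DESeq2 called Fdft1 (adjusted p = 0.0383), and so did edgeR without aortic WT AngII replicate 3 (0.0491). Lss (0.62 ± 0.224, edgeR adjusted p = 0.162), Ebp (-0.41 ± 0.156, 0.193) and Sqle (0.75 ± 0.296, 0.209) followed. A gene called in the aorta and not in the mesenteric arteries was therefore not shown to differ between them.

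Deletion of Sphk1 in smooth muscle, read from KO AngII against WT AngII, gave no call among the 31 genes in either tissue. In the aorta 0 of 31 were called, against 0.00593% of all genes (1 of 16863), and 0 of 31 had an unadjusted p below 0.05 (608 of all genes). DESeq2 called 6 genes across the genome. The smallest edgeR adjusted p was 0.981. Abcg1 stood at 10.2, 10.3, 8.66, 8.04 and 10.4 CPM in KO AngII aortas, against 13.4, 9.81, 9.58 and 6.65 CPM in WT AngII aortas. Abca1 stood at 84.3, 85.3, 90.0, 83.7 and 97.5 CPM in KO AngII aortas, against 103, 94, 71.4 and 69.2 CPM in WT AngII aortas. For both exporters the KO AngII values lay inside the WT AngII range.

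The largest log2 fold changes in the aorta were those of Insig1 (0.35 ± 0.247) and Acat2, the cytosolic thiolase that starts the pathway (0.29 ± 0.185), and the most negative were those of Sqle (-0.26 ± 0.222) and Msmo1 (-0.26 ± 0.2). Insig1 was 97.9, 59.9, 46.9, 58.0 and 85.2 CPM in KO AngII aortas and 64.0, 49.4, 62.1 and 41.8 CPM in WT AngII aortas, with replicates 1 and 5 above the WT range. The 95% intervals of all 31 genes lay within a 2-fold change in the aorta, from a lowest bound of -0.74 (Sqle) to a highest of 0.89 (Insig1), and those of 24 genes lay within a 1.5-fold change. Changes inside these bounds remain possible.

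For KO AngII against WT AngII mesenteric arteries 0 of 31 genes were called, against 0.00571% of all genes (1 of 17513). An unadjusted p below 0.05 was found for 0 of 31, against 872 of all genes. The smallest edgeR adjusted p was 0.798. DESeq2 called 2 genes across the genome. Intervals of 29 of 31 genes lay within a 2-fold change. The widest was that of Abcg1, which stood at 14.7, 11.6, 59.4, 9.24 and 10.5 CPM in KO AngII mesenteric arteries and at 16.7, 13.8, 6.91 and 12.1 CPM in WT AngII mesenteric arteries (log2 fold change 0.79 ± 0.545, upper bound 1.98). The high value is that of replicate 3, the library rich in macrophage markers, which was also the highest of its group for Nr1h3 (60 CPM; 13 to 23.6 CPM in the others), Mylip (71.9 CPM; 32.5 to 41.7 CPM), Soat1 (44.6 CPM; 24.7 to 28.8 CPM) and Stard4 (41.2 CPM; 20.6 to 26.4 CPM). The enzyme sum was 434, 380, 423, 489 and 404 CPM in KO AngII mesenteric arteries, against 452, 406, 474 and 406 CPM in WT AngII mesenteric arteries. The interaction of the deletion with tissue was called for 0 of 31 genes (0% of 18520 genes with edgeR, 749 of them with an unadjusted p below 0.05 and 0 of these among the 31; 15 genes with DESeq2).

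KO AngII vessels were also set against WT sham vessels, a comparison that uses the same sham libraries as the one above and in which deletion and infusion cannot be told apart. In the aorta 5 of 31 genes were higher and 1 lower, against 30.8% of all genes (16.6% higher and 14.2% lower). Abcg1 (log2 fold change 0.91 ± 0.167; edgeR adjusted p = 0.000907), Abca1 (0.59 ± 0.112, 0.00117), Soat1 (0.46 ± 0.0828, 0.000797) and Cyp51 (0.55 ± 0.17, 0.0244) rose, as did Nr1h3. Nr1h3 stood at 15.8, 18.1, 12.4, 17.7 and 15.5 CPM in KO AngII aortas and at 10.7, 10.4, 11.6 and 13.9 CPM in WT sham aortas (0.43 ± 0.135; edgeR adjusted p = 0.0244), with overlap through 1 KO AngII library. Nr1h2 fell, with 79.1, 81.0, 87.2, 74.4 and 71.2 CPM in KO AngII aortas, all below the 90.5, 116, 106 and 98.1 CPM of WT sham aortas (-0.40 ± 0.0919; edgeR adjusted p = 0.0042). Npc1 was not called here (0.12 ± 0.0522; edgeR adjusted p = 0.092).

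The calls of Nr1h3 and Cyp51 in that comparison depended on single libraries and on the processing. Nr1h3 lost its call without KO AngII replicate 2 (edgeR adjusted p = 0.0608) or 4 (0.0589) and without WT sham replicate 1 (0.0675), 2 (0.0851) or 3 (0.0526). It also lost it with the adipocyte marker level as a covariate (log2 fold change 0.19, edgeR adjusted p = 0.249), with library size alone (0.33, 0.0841) and with the replicate block (0.0738). Cyp51 lost it without KO AngII replicate 1 (edgeR adjusted p = 0.0586) or 5 (0.0508) and without WT sham replicate 1 (0.078) or 3 (0.0531), with no filter (0.0681) and with the replicate block (0.0834). Macrophage markers summed to 1140 to 1320 CPM in KO AngII aortas and to 676 to 835 CPM in WT sham aortas. With their mean level as a covariate Abca1, Abcg1 and Nr1h3 had log2 fold changes of -0.23, -0.35 and -0.02 (edgeR adjusted p = 0.805, 0.798 and 0.993), and 17 genes were called across the genome.

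Mesenteric KO AngII against WT sham libraries gave 0 calls of 31 with edgeR, against 0.708% of all genes (124 of 17513). An unadjusted p below 0.05 was found for 11 of the 31, against 3347 of all genes. DESeq2 called 6 of the 31, all enzymes and all higher (Mvd, Sqle, Cyp51, Nsdhl, Hsd17b7 and Sc5d), against 1405 of 17333 genes across the genome (8.11%). Mvd stood at 5.92, 5.82, 9.83, 6.44 and 5.57 CPM in KO AngII and at 3.19, 3.74, 4.75 and 3.72 CPM in WT sham mesenteric arteries, without overlap (log2 fold change 0.81 ± 0.199; edgeR adjusted p = 0.0803). Sqle stood at 28.0, 19.3, 30.3, 35.7 and 30.4 CPM in KO AngII and at 15.1, 18, 19.7 and 17.9 CPM in WT sham mesenteric arteries, where KO AngII replicate 2 lay among the sham values (0.71 ± 0.156; edgeR adjusted p = 0.0612). Without that library Sqle passed with edgeR (0.82, adjusted p = 0.0186), and without WT sham replicate 3 Cyp51 did (0.83, adjusted p = 0.0256). Of the markers of dividing cells 8 of 10 were called higher in this comparison, at 39.6 to 115 CPM in KO AngII and 15.8 to 17.6 CPM in WT sham mesenteric arteries. Macrophage markers were not called, but 11 of 12 had an unadjusted p below 0.05 (median log2 fold change 1.68), as did 6 of 10 endothelial markers (-0.45) and 6 of 8 nerve and Schwann cell markers (-0.46). The part of these markers in the values above was not tested.

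The vessel beds were compared within each condition. In WT sham mice 12 of 31 genes were lower in mesenteric arteries than in aortas and 1 was higher, against 38.4% of all 18520 genes tested (17.7% lower and 20.7% higher). Of the 18 enzymes 7 were lower and 0 higher, and the median log2 difference of the 31 genes was -0.30, against 0.02 over all genes. Fdft1 stood at 16.0, 17.8, 20.8 and 19.6 CPM in mesenteric arteries and at 28.2, 39.3, 32.8 and 36.7 CPM in aortas of WT sham mice (log2 difference -0.88 ± 0.152; edgeR adjusted p = 5.61e-05). Sqle stood at 15.1, 18, 19.7 and 17.9 CPM in mesenteric arteries and at 28.8, 38.9, 32.3 and 30.5 CPM in aortas of WT sham mice (-0.88 ± 0.211; edgeR adjusted p = 0.00182). Neither gene overlapped between the tissues. Fdft1 shares 18.3% of its exon bases with Ctsb on the opposite strand, and the strand setting of the counting is not stated. Ctsb averaged 449 CPM in mesenteric arteries and 959 CPM in aortas of WT sham mice. Its part in the Fdft1 values was not tested.

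The other genes lower in sham mesenteric arteries were Fdps (-1.12; edgeR adjusted p = 0.0195), Acat2 (-0.63, 0.0212), Nsdhl (-0.54, 0.012), Tm7sf2 (-0.44, 0.0145), Sc5d (-0.36, 0.0121), Insig1 (-0.60, 0.0318), Insig2 (-0.43, 0.00118), Srebf2 (-0.44, 0.0307), Soat1 (-0.41, 0.016) and Npc1 (-0.38, 0.000109), each as a log2 difference. Stard4 was higher, at 21.3, 19.9, 26.7 and 21.6 CPM in mesenteric arteries and 11.8, 12.5, 12.3 and 14.2 CPM in aortas of WT sham mice (0.81 ± 0.178; edgeR adjusted p = 0.000802). Without overlap, 10 of 31 genes were wholly lower and 2 wholly higher (Stard4 and Abcg1), against 19.3% and 22.7% of all genes. Aortic WT sham replicate 4, which held 1980 CPM of adipocyte markers (696 to 1020 CPM in the other sham aortas and 494 to 942 CPM in sham mesenteric arteries), decided several of these values. Without it Acat2 (-0.41; edgeR adjusted p = 0.111), Nsdhl (-0.37, 0.0663), Sc5d (-0.27, 0.054) and Insig1 (-0.35, 0.177) lost their calls.

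Other single libraries also ended calls of this comparison. Srebf2 lost its call without aortic sham replicate 2 or 3 or mesenteric sham replicate 1, 2 or 4, with an edgeR adjusted p of 0.0501 to 0.108. Insig1 lost it without mesenteric sham replicate 1, 2 or 4 (0.0508 to 0.0792), Acat2 without mesenteric sham replicate 2 or 4 (0.0704 and 0.0607), and Fdps without mesenteric sham replicate 3 or 4 (0.0535 and 0.0662). With the adipocyte marker level as a covariate 34.2% of all genes were called, against 38.4% without it. Of the 31 genes 7 were then called lower, and Acat2 (-0.15; edgeR adjusted p = 0.406), Insig1 (-0.21, 0.455), Tm7sf2 (-0.30, 0.129), Nsdhl (-0.35, 0.146) and Sc5d (-0.30, 0.0725) lost their calls. With library size alone Tm7sf2 (edgeR adjusted p = 0.058), Insig1 (0.052), Srebf2 (0.0616) and Soat1 (0.0836) lost theirs. Endothelial markers were higher in the mesenteric arteries in 10 of 10 cases, at 3950 to 4290 CPM against 987 to 1110 CPM in aortas. Gut and pancreas markers were called higher in 10 of 12 cases, at 53.3 to 33200 CPM against 15.2 to 17.4 CPM. Nerve and Schwann cell markers were called higher in 6 of 8, at 1100 to 1430 CPM against 408 to 499 CPM. Macrophage markers also differed, at 244 to 495 CPM in mesenteric arteries and 676 to 835 CPM in aortas of WT sham mice. The part of these 4 marker lists in the values was not tested. Fdft1, Sqle, Insig2, Npc1 and Stard4 kept their call in each of the 16 alternatives run. Acat2 has a close relative, Acat3, at a mean of 0.343 to 3.77 CPM over the groups, and reads shared between them could not be separated here.

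In WT AngII mice 2 of 31 genes were higher and 4 lower in mesenteric arteries than in aortas, against 40.4% of all genes (21.3% higher and 19.1% lower), and among the 18 enzymes 0 were lower and 1, Lss, was higher. Lss stood at 21.5, 20.5, 28.7 and 20.8 CPM in mesenteric arteries and at 11.3, 15.4, 21.2 and 18.9 CPM in aortas of WT AngII mice (log2 difference 0.45 ± 0.159; edgeR adjusted p = 0.0256). That call was lost without aortic replicate 1 (edgeR adjusted p = 0.11) or 2 (0.0684) and without mesenteric replicate 3 (0.122). Insig2 (-0.35; edgeR adjusted p = 0.007), Scap (-0.36, 0.000496), Npc1 (-0.51, 2.34e-06) and Soat1 (-0.53, 0.00246) were lower, and Stard4 (0.98, 0.000116) was higher.

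In KO AngII mice 4 of 31 genes were higher and 8 lower in the mesenteric arteries, against 47.6% of all genes (26.8% higher and 20.8% lower). Stard4 (0.94; edgeR adjusted p = 4.23e-05), Nr1h2 (0.24, 0.0146), Nr1h3 (0.83, 0.0239) and Abcg1 (1.15, 0.0184) were higher. Without mesenteric KO AngII replicate 3, Abcg1 had a log2 difference of 0.27 (edgeR adjusted p = 0.338) and Nr1h3 of 0.35 (0.212), and Nr1h3 also lost its call without aortic KO AngII replicate 3 (0.0589). Npc1 (-0.46; edgeR adjusted p = 1.48e-06), Scap (-0.30, 0.000699), Soat1 (-0.51, 0.00112), Acat2 (-0.72, 0.00311), Insig2 (-0.33, 0.00353), Srebf1 (-0.44, 0.0108), Insig1 (-0.58, 0.0154) and Sc5d (-0.25, 0.0422) were lower. Insig1 lost its call without aortic KO AngII replicate 1 (edgeR adjusted p = 0.068), and Sc5d without any of 6 libraries: aortic replicates 1 and 5 and mesenteric replicates 1, 2, 3 and 5 (0.052 to 0.13). With the adipocyte marker level as a covariate Acat2 had -0.05 (edgeR adjusted p = 0.842), Insig1 -0.05 (0.881), Srebf1 -0.30 (0.227), Sc5d -0.17 (0.386), Nr1h2 0.15 (0.282), Nr1h3 0.70 (0.234) and Abcg1 0.54 (0.519). That covariate left 31.5% of all genes called, against 47.6% without it. Adipocyte markers, of which 5 of 12 were lower, summed to 318 to 1790 CPM in mesenteric arteries and 1070 to 2180 CPM in aortas of KO AngII mice. Stard4, Npc1, Soat1 and Insig2 were called in the same direction in all 3 conditions. Npc1 stood at 39.2, 44.6, 54.9, 44.0 and 46.3 CPM in mesenteric arteries and at 59.6, 62.6, 63.9, 65.7 and 63.8 CPM in aortas of KO AngII mice, without overlap.

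**Figure D4:**
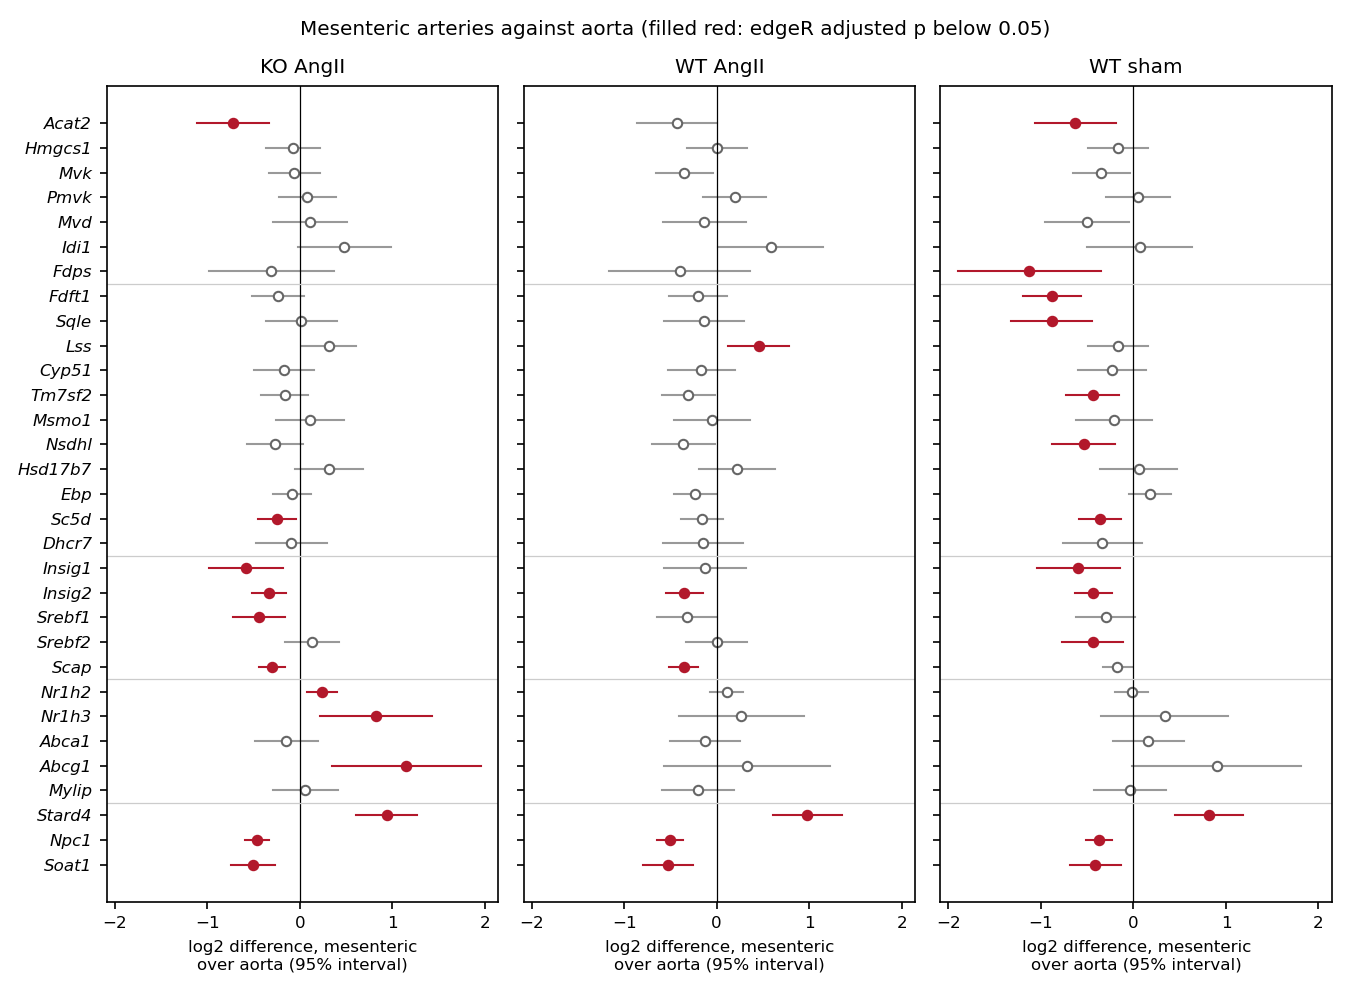
Log2 difference of mesenteric arteries over aorta with its 95% interval (horizontal axis) for each of the 31 genes (vertical axis, grouped by role) in KO AngII, WT AngII and WT sham mice from left to right; filled red points passed an edgeR adjusted p of 0.05. Stard4 lies right of 0 and Npc1 and Soat1 left of 0 in each panel, and the filled enzymes Fdft1 and Sqle appear in the WT sham panel.

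Neighbouring pathways were followed through 4 lists of other genes. In the aorta of WT AngII against WT sham mice, of 24 genes of lipoprotein uptake, sterol trafficking and oxysterol metabolism 9 rose and 2 fell, where 14.7% of all genes rose and 10.8% fell. Lipa, the lysosomal acid lipase that frees cholesterol from its esters, rose by 0.57 ± 0.0624 on the log2 scale (edgeR adjusted p = 2.35e-05), and Lrp8, a lipoprotein receptor, by 1.16 ± 0.171 (0.000224). Vldlr, another lipoprotein receptor, fell by 0.62 ± 0.0713 on the log2 scale (edgeR adjusted p = 3.54e-05). Of 11 genes of SREBP processing and of sterol-regulated degradation 3 rose and 1 fell: Erlin1 (0.44 ± 0.0911; edgeR adjusted p = 0.00268), which acts in sterol-regulated degradation, and Mbtps1 (0.20 ± 0.0607, 0.028), the protease that first cuts SREBPs, rose, and Pgrmc1 (-0.31 ± 0.0714, 0.00593), a sterol-binding membrane protein, fell. Of 15 fatty acid synthesis genes, which SREBPs also drive, 0 rose and 1, the desaturase Fads1, fell (-0.36 ± 0.105; edgeR adjusted p = 0.0218), and of 13 genes of the isoprenoid branch 0 were called (Nus1, 0.14 ± 0.0675, 0.162).

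In the mesenteric arteries of WT AngII against WT sham mice, Lrp8 was the single gene of the 4 lists that was called (1.29 ± 0.193; edgeR adjusted p = 0.0204). In KO AngII against WT sham mesenteric arteries it was again the single one (1.86 ± 0.189, 0.00196). In KO AngII against WT sham aortas, where 16.6% of all genes rose and 14.2% fell, 10 of the 24 uptake and oxysterol genes rose and 2 fell, with Lipa (0.63 ± 0.0597; edgeR adjusted p = 5.6e-06), Vldlr (-0.67 ± 0.0671, 9.23e-06) and Ch25h, the enzyme that makes an oxysterol (2.84 ± 0.374, 7.37e-05). In the same aortas 4 of 11 SREBP processing genes rose and 1 fell, 1 of 13 isoprenoid genes rose (Nus1, 0.18 ± 0.0642; edgeR adjusted p = 0.0482), and 2 of 15 fatty acid genes rose and 2 fell (Elovl5, 0.34 ± 0.0758, 0.00369). In KO AngII against WT AngII vessels 0 genes of the 4 lists were called in either tissue. The smallest unadjusted p of the fatty acid genes belonged to Me1, the malic enzyme, in the aorta (0.54 ± 0.189; edgeR adjusted p = 0.981), and among the uptake genes to Lrp8 in the mesenteric arteries (0.57 ± 0.18, 0.798). Of all genes of the 4 lists the interaction of AngII with tissue was called for Ch25h alone, whose mesenteric log2 fold change minus the aortic one was -2.29 ± 0.451 (edgeR adjusted p = 0.007).

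Between the vessel beds of WT sham mice, where 17.7% of all genes were lower and 20.7% higher, 8 of the 15 fatty acid genes were lower in the mesenteric arteries and 1 was higher, among the lower ones the elongase Elovl6 (-1.97 ± 0.483; edgeR adjusted p = 0.00235), while the elongase Elovl5 was higher (0.63 ± 0.0888, 4.76e-06). Adipocyte markers, of which 4 of 12 were lower, summed to 494 to 942 CPM in mesenteric arteries and 696 to 1980 CPM in aortas of these mice, and their part in the fatty acid values was not tested. Of the 24 uptake and oxysterol genes 7 were higher and 7 lower. Ch25h (3.83 ± 0.351; edgeR adjusted p = 5.37e-09) and Cyp7b1, which hydroxylates oxysterols (3.48 ± 0.306, 2.79e-09), were higher in the mesenteric arteries, and Lrp1, a lipoprotein receptor, was lower (-1.31 ± 0.121, 5.96e-09).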

How the data were processed

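RNA of 26 libraries, 13 per tissue, was sequenced. A PureLink kit gave the RNA and NEBNext Ultra II Directional reagents the libraries, which a NovaSeq instrument read, per the labels' protocols. The deposited values are raw read counts per Ensembl gene, which the authors made with cutadapt, HISAT2 and HTSeq on GRCm39, per the submitters' processing notes; the sources used here give no versions, annotation release or strand setting. Neither library sizes nor tests used the 5 summary lines per table; records without a gene were 18.4 to 33.6% of records.

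Each tissue was fitted with edgeR 4.0.16 (R 4.3.3): filterByExpr, TMM scaling, 3 groups in 1 model without covariates, robust quasi-likelihood F test, Benjamini-Hochberg adjustment over all genes tested, and a call at an adjusted p below 0.05. Tissue differences and interactions came from 1 fit of all 26 libraries. CPM values are TMM-scaled over the 26 libraries. The sign ± gives the SE of a log2 fold change, taken as its absolute value over the square root of F, and the SD of CPM. Intervals are 95% intervals. Correlations of same-numbered libraries used log2 CPM with a prior count of 2. Lengths are union exons of GENCODE M21, and promoters are from RefSeq. The methods were tested on simulated data. Of 9 marker lists, 1 is not reported here.

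The 31 genes, the gene lists and the alternatives were chosen with earlier results of these data known. All 31 were described; of the 4 pathway lists, up to 3 called genes with the smallest adjusted p were to be named per comparison, of which the text uses a selection. No pair of libraries of a group agreed within sampling noise. The p-values weigh a group difference against the spread between libraries. The labels do not say whether a replicate number marks 1 animal in both tissues or pairs animals across groups. The main fits treat all libraries as independent, which would not hold if both tissues came from the same animals. Alternatives were to leave out libraries, to add a replicate block or a marker level to the model, to drop the filter or tighten it (CPM of at least 1 in at least 4 libraries), to scale by RLE factors or by library size alone, and to test with DESeq2 1.42.0.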

Additional observations from a re-analysis of the deposited data

Results flagged for a closer look

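In 24 of the 186 combinations of gene and group, 1 library stood far from the others of its group; chance alone gives this in about 1 in 20 groups. Several of these values belong to a few libraries. Mesenteric KO AngII replicate 3 was high for Nr1h3 at 60 CPM (13 to 23.6 CPM in the others of its group), Abcg1 at 59.4 CPM (9.24 to 14.7), Mylip at 71.9 CPM (32.5 to 41.7), Stard4 at 41.2 CPM (20.6 to 26.4), Soat1 at 44.6 CPM (24.7 to 28.8) and Mvd at 9.83 CPM (5.57 to 6.44), and low for Insig2 at 40.4 CPM (47.7 to 49.2). It also held 2460 CPM of macrophage markers. Mesenteric WT AngII replicate 1, with 889 CPM of macrophage markers, was high for Nr1h3 at 30.4 CPM (12.7 to 14.7).

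Aortic WT sham replicate 4, with 1980 CPM of adipocyte markers, was high for Acat2 at 38.6 CPM (21.5 to 23.3), Nsdhl at 27.6 CPM (17.3 to 17.8) and Insig1 at 86.1 CPM (43.8 to 50.3). Aortic WT AngII replicate 3 was high for Nsdhl at 29.6 CPM (19.3 to 20), Srebf1 at 192 CPM (128 to 133) and Nr1h2 at 102 CPM (80.7 to 84), and replicate 4 of that group for Hmgcs1 at 122 CPM (85.4 to 87.6). Aortic WT sham replicate 2 was high for Mvk at 21.9 CPM (14.9 to 16) and Ebp at 24.1 CPM (19 to 19.7), and aortic KO AngII replicate 1 for Mvk at 16.7 CPM (13.3 to 14).

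In the mesenteric arteries, KO AngII replicate 4 was high for Hmgcs1 at 126 CPM (76.3 to 87.8) and Tm7sf2 at 11.8 CPM (7.74 to 8.63), and KO AngII replicate 2 was low for Idi1 at 10.2 CPM (14.3 to 15.7). WT AngII replicate 3 was high for Lss at 28.7 CPM (20.5 to 21.5), and WT sham replicate 3 for Pmvk at 25.9 CPM (17.2 to 18.1) and Sc5d at 37.2 CPM (33.5 to 34.1).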

How the results depend on the processing

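Of 42 calls of single genes tried under 702 alternatives in all, 608 kept direction and call, 89 lost the call and 5 changed sign. Of 406 alternative counts of called genes, 368 equalled the reported one or lay within 1.5 times it. Several reported counts were 0, and there only another 0 was taken as the same, so this total says little on the other counts. In the aorta, WT AngII over WT sham gave 5 genes higher and 0 lower. Library size alone as the scaling, which shifted the median of all genes to -0.126, gave 3 higher and 2 lower, no filter on low counts 3 higher, and leaving out 1 library 3 to 7 higher and 0 to 3 lower. With macrophage markers as a covariate 0 were higher, and Abca1 turned to -0.152 and Abcg1 to -0.103. Of all genes 25.5% were called in the main fit, 32.5% with library size alone, 11.8% with no filter and 1.74% with the macrophage covariate. KO AngII over WT sham aortas gave 5 higher and 1 lower. Library size alone gave 5 lower (median of all genes -0.105), macrophage markers 0 higher and 0 lower, with Nr1h3 at -0.021, Abca1 at -0.226 and Abcg1 at -0.349, and leaving out 1 library 3 to 7 higher and 1 to 2 lower. Here 30.8% of all genes were called in the main fit, 37.2% with library size alone and 0.101% with the macrophage covariate. In the mesenteric arteries both comparisons with sham gave 0 calls; DESeq2 gave 4 higher for WT AngII and 6 higher for KO AngII, and leaving out 1 library gave 0 to 1 higher in each. The interaction of AngII with tissue gave 0 higher, with DESeq2 1 and with 1 library left out 0 to 1. Counts for KO AngII against WT AngII, and for its interaction with tissue, stayed at 0 under every alternative run.

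Between the tissues, WT sham mice gave 12 lower and 1 higher, with the adipocyte covariate 7 lower, without the pair of mesenteric libraries that stand apart 2 higher, and with 1 library left out 8 to 14 lower. WT AngII mice gave 2 higher and 4 lower, with library size alone 4 higher (median of all genes 0.155) and with 1 library left out 1 to 4 higher and 4 to 7 lower. KO AngII mice gave 4 higher and 8 lower, with library size alone 7 higher and 4 lower (median of all genes 0.196), with the adipocyte covariate 1 higher and 4 lower, without the mesenteric libraries that stand apart 2 higher, and with 1 library left out 2 to 5 higher and 6 to 10 lower. Of all genes 38.4% were called in WT sham, 40.4% in WT AngII and 47.6% in KO AngII mice. In the same order, the adipocyte covariate left 34.2, 32 and 31.5% of all genes called. Library size alone gave 36.1, 41 and 50.6%, and leaving out the pair of libraries that stand apart 41.4, 39.6 and 45.2%. The cause of these changes was not tested.

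The labels do not say that replicate numbers pair the libraries, and they were not taken to do so. The correlation of same-numbered libraries was over 0.1 in 1 of 12 pairs within the aorta, 7 of 12 within the mesenteric arteries and 3 of 13 across tissues. Libraries of different numbers were not set beside them, so these correlations cannot decide whether the numbers pair animals. With the replicate block, WT AngII over WT sham aortas gave 3 higher and 1 lower, KO AngII over WT sham aortas 3 higher, and the tissue difference in WT AngII mice 7 lower. In the same order, 22.4, 23.9 and 37.9% of all genes were called with the block, against 25.5, 30.8 and 40.4% without it. Groups of 4 and 5 libraries limit what can be called; Fdps and Abcg1 had the lowest levels per length.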
